A study of Mus musculus with 16 samples.

Results

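Endothelial cells line the blood vessels of the brain, and 10 genes that mark them were followed across the hippocampus of newborn and juvenile mice: Cldn5, Esam, Pecam1, Cdh5, Flt1, Kdr, Tek, Eng, Ly6c1 and Abcb1a. The rule that picks them is a list of names, markers of a cell type that also expresses Mef2c, and uses no measured value, although earlier results of these data were known when the list was made. Every probe named for one of them, or for an older name of the same gene, was taken, which gave 12 of the 25697 probes on the array. Total RNA of whole hippocampus was measured on 16 Illumina MouseRef-8 v2 arrays, on which the fluorescence of many beads with the same probe is averaged. There were 4 arrays in each of 4 groups, wild-type (WT) or Mef2c-het at postnatal day 1 (P1) or 30 (P30), and the labels name no treatment. Mef2c-het mice carry a conventional allele of Mef2c without exon 2 beside a WT allele, in all cells and from conception, on the C57BL/6J background, and their WT littermates were the controls. The labels name the heterozygous animals KO, and they give no sex, litter, chip or extraction batch for an array. Nothing in the labels says more of how replicates relate, so the p-values rest on the spread between arrays within groups. In the limma fit used below, that spread is pooled over the 4 groups and moderated across the tested probes.

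Brain endothelium differs from that of most organs in forming the blood-brain barrier, in which tight junctions seal neighbouring cells and transporters control what passes through them. Vascular endothelial growth factor (VEGF) drives vessel growth through the receptor encoded by Kdr, while the receptor encoded by Flt1 binds the same ligand tightly and limits the amount that reaches Kdr. Angiopoietin-1 acts through the receptor encoded by Tek to stabilise vessels, and endoglin, encoded by Eng, is a co-receptor for ligands of the TGF-beta and BMP family. After birth, vessels of the rodent brain go on sprouting for some weeks before growth slows and the barrier matures.

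The median number of beads behind a probe was between 36 and 39 on each array, and 12638 to 14150 probes had a detection p under 0.05 against negative control beads. All levels below are log2 values after quantile normalization of the 16 arrays. A probe was tested if its detection p was under 0.05 on at least 4 arrays, which held for 14777 probes, and was called changed at an adjusted p under 0.05 in limma (Benjamini-Hochberg over all tested probes). A smaller cluster of arrays stood apart with a higher signal floor, namely replicate 8 of both P1 groups, WT replicates 6 and 7 at P30 and Mef2c-het replicate 7 at P30. The targeted gene did not separate the genotypes. Mef2c probe ILMN_2887992 read 8.62, 8.59, 8.96 and 8.70 in WT and 8.16, 8.42, 8.16 and 8.95 in Mef2c-het at P30, a log2 difference of -0.29 (exact permutation p = 0.2). At P30, Mef2c-het replicate 7 lay within the WT range and the other 3 lay below it. At P1 it read 8.31, 8.31, 8.46 and 8.47 in WT and 8.19, 8.44, 8.40 and 8.79 in Mef2c-het, with overlapping groups. Probe ILMN_2732465 ran from 9.61 to 9.80 in WT and from 8.97 to 9.92 in Mef2c-het at P30, and from 9.39 to 9.61 and 9.15 to 9.73 at P1. The other Mef2c probe, ILMN_1214950, was detected on 2 of 16 arrays. Whether the probes lie in the deleted exon is not given in the sources used here, so these levels do not check the genotype labels.

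Of the 12 endothelial probes, 8 passed the filter, for 7 of the 10 genes, and each of the 8 was detected on all 16 arrays. They read Cldn5, Esam, Pecam1 (2 probes), Flt1, Tek, Eng and Ly6c1. Junction, adhesion and receptor genes of endothelium were thus measured, but the probes of 2 of its defining genes, Cdh5 and Kdr, were at or near the background.

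The larger differences lay between the ages. Between P1 and P30 in WT hippocampus, Cldn5, Esam, Eng and Tek fell and Flt1 and Ly6c1 rose, so that the endothelial genes did not move in 1 direction. Of the 8 tested probes 6 were called, 2 higher and 4 lower, beside 59.7% of all tested probes (28% higher and 31.7% lower). In Mef2c-het mice 7 were called, 2 higher and 5 lower, beside 58.3% (26.9% higher and 31.4% lower). The share called was therefore near that of the whole array, and the results below are the sizes and directions of single genes. In whole tissue, fewer endothelial cells and less of a transcript in each cell cannot be told apart.

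Cldn5 encodes claudin-5, the main claudin of endothelial tight junctions. In WT mice its probe, ILMN_1241293, read 11.83, 12.02, 11.67 and 12.01 at P1 and 10.36, 10.18, 10.57 and 10.57 at P30. In Mef2c-het mice it read 11.93, 11.77, 11.91 and 11.93 at P1 and 10.18, 10.33, 10.40 and 10.44 at P30. Every P30 array lay below every P1 array, in both genotypes. Cldn5 fell by 1.46 on the log2 scale in WT (SE 0.097, adjusted p = 1.53e-09, a fold of 0.363) and by 1.55 in Mef2c-het (adjusted p = 7.77e-10, a fold of 0.342, limma with Benjamini-Hochberg adjustment).

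Esam encodes an adhesion molecule of the immunoglobulin superfamily at endothelial contacts. Its probe, ILMN_2690839, read 10.83, 10.61, 10.66 and 10.73 at P1 and 9.72, 9.91, 9.75 and 9.79 at P30 in WT. In Mef2c-het it read 10.95, 10.70, 10.78 and 10.80 at P1 and 9.79, 9.79, 9.56 and 9.76 at P30. The ages did not overlap in either genotype. Esam fell by 0.91 in WT (log2, SE 0.0734, adjusted p = 1.62e-08, limma) and by 1.08 in Mef2c-het (adjusted p = 2.06e-09, limma).

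Pecam1 encodes CD31, an adhesion molecule of endothelial contacts, of platelets and of some leukocytes, and its 2 probes stayed within a narrow range. Probe ILMN_2700982 read 7.92, 7.85, 7.82 and 8.03 at P1 and 7.89, 7.77, 7.75 and 7.70 at P30 in WT, where the groups overlapped. In Mef2c-het it read 7.97, 7.73, 8.05 and 7.95 at P1 and 7.69, 7.80, 7.42 and 7.88 at P30, and these groups overlapped too. Its log2 difference was -0.13 in WT (95% interval -0.33 to 0.07, adjusted p = 0.248, limma) and -0.23 in Mef2c-het (adjusted p = 0.047, limma). The call in Mef2c-het was lost without replicate 6 at P30, the lowest array, with a difference of -0.13 and an adjusted p of 0.185 (limma). It was close to the threshold in general, and was also lost without arrays of other groups. Without WT replicate 1 at P1, for example, the difference stayed at -0.23 with an adjusted p of 0.0563 (limma). Probe ILMN_3147074 differed by -0.01 in WT (95% interval -0.16 to 0.15) and by -0.12 in Mef2c-het (-0.27 to 0.04), with overlapping groups in both and no call. With normexp background correction, which removes an estimate of the signal floor before normalization, ILMN_2700982 differed by -0.28 in WT, again without a call, and by -0.53 in Mef2c-het, and ILMN_3147074 by -0.02 and -0.33.

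Among the receptors, Flt1 and Tek went in opposite directions with age. Flt1 probe ILMN_1227926 read 8.99, 8.56, 8.74 and 8.73 at P1 and 9.89, 10.05, 10.02 and 9.82 at P30 in WT. In Mef2c-het it read 8.95, 8.69, 8.60 and 8.94 at P1 and 9.62, 9.77, 9.47 and 10.06 at P30. All P30 arrays lay above all P1 arrays of their genotype. Flt1 rose by 1.19 in WT (log2, SE 0.122, adjusted p = 2.95e-07, a fold of 2.28, limma) and by 0.93 in Mef2c-het (adjusted p = 5.22e-06, a fold of 1.91, limma). The other Flt1 probe, ILMN_2732721, was detected on 0 of 16 arrays, so the rise rests on a single probe.

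Tek probe ILMN_1220170 read 8.80, 8.93, 8.69 and 8.83 at P1 and 8.37, 8.56, 8.57 and 8.40 at P30 in WT. In Mef2c-het it read 8.94, 8.78, 8.94 and 9.0 at P1 and 8.14, 8.44, 8.14 and 8.42 at P30. The ages stood apart in both genotypes. Tek fell by 0.34 in WT (log2, SE 0.0847, adjusted p = 0.0026, limma) and by 0.63 in Mef2c-het (adjusted p = 7.44e-06, limma).

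Eng probe ILMN_1229161 read 8.58, 8.23, 8.48 and 8.33 at P1 and 8.03, 8.03, 8.13 and 7.97 at P30 in WT. In Mef2c-het it read 8.49, 8.30, 8.35 and 8.49 at P1 and 8.01, 8.12, 7.78 and 8.10 at P30. Here, too, the ages did not overlap, although the gap in WT, between 8.13 and 8.23, was small. Eng fell by 0.37 in WT (log2, SE 0.0862, adjusted p = 0.00157, limma) and by 0.41 in Mef2c-het (adjusted p = 0.000649, limma). With normexp background correction the values for Eng were -0.62 and -0.71.

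Ly6c1 encodes a GPI-anchored surface protein that is abundant on brain endothelium and is also carried by some leukocytes. Its probe, ILMN_1254927, is listed under the older name Ly6c, and the near-identical Ly6c2 has no probe of its own on the array. The probe sequence was not in the sources used here, so whether the probe also reads Ly6c2 could not be checked. The probe read 8.48, 8.49, 8.36 and 8.58 at P1 and 10.43, 10.59, 10.51 and 10.60 at P30 in WT. In Mef2c-het it read 8.53, 8.37, 8.41 and 8.63 at P1 and 10.72, 10.24, 10.16 and 10.57 at P30. The ages lay far apart in both genotypes, and the P30 arrays were more spread in Mef2c-het (SD 0.267) than in WT (SD 0.078). Ly6c1 rose by 2.05 in WT (log2, SE 0.105, adjusted p = 6.21e-11, a fold of 4.15, limma) and by 1.94 in Mef2c-het (adjusted p = 1.28e-10, limma), the largest change among the 8 probes.

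**Figure D1:**
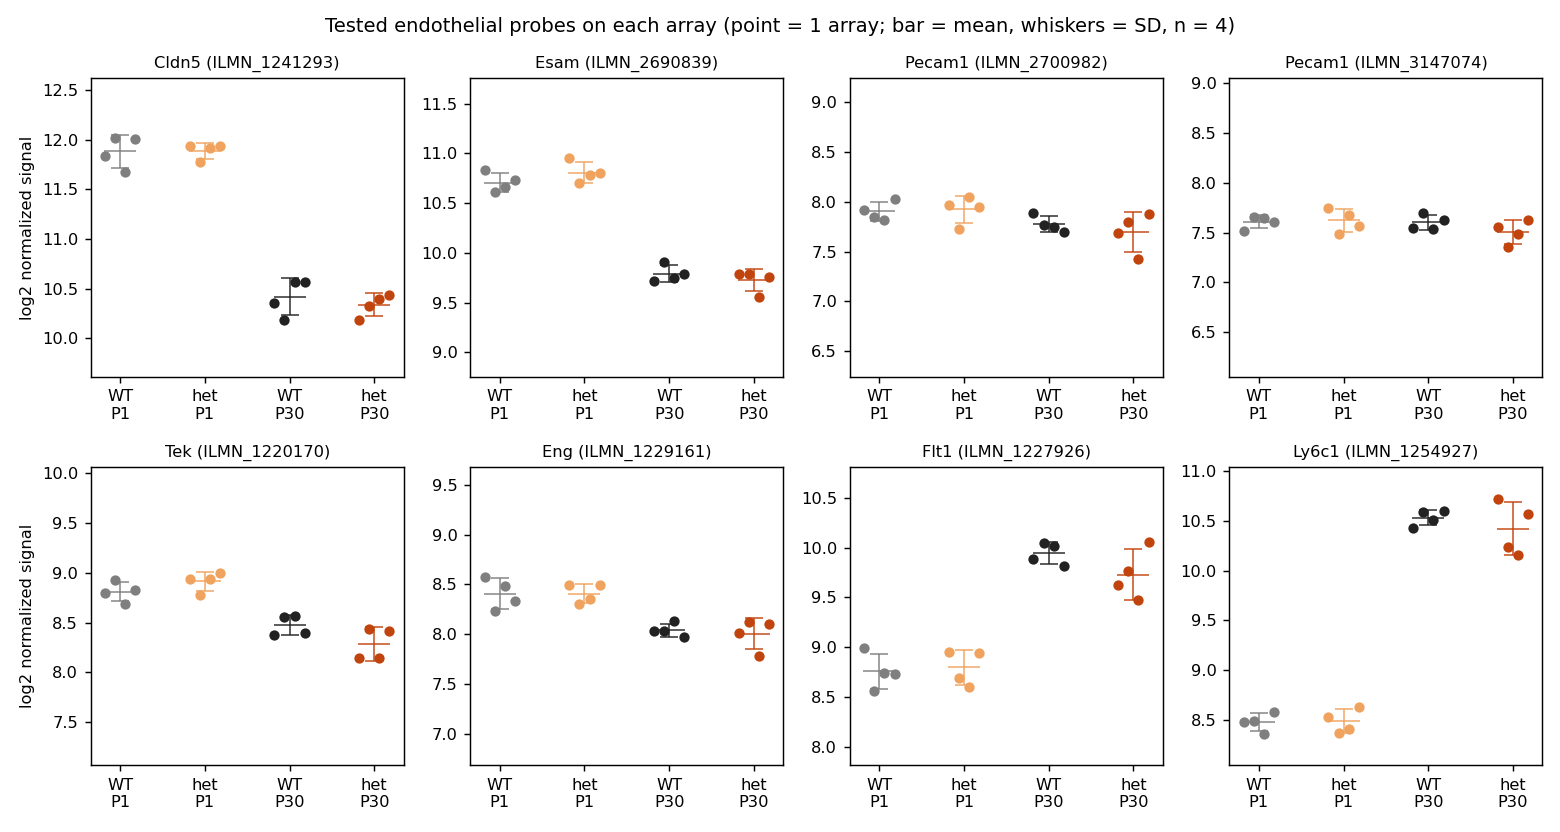
Log2 normalized signal (vertical axis, a span of 3 in every panel) of the 8 tested endothelial probes on each array, by group of 4 arrays (horizontal axis), with the mean as a bar and the SD as whiskers. Cldn5 and Esam stand lower at P30, Flt1 and Ly6c1 stand higher, both Pecam1 probes overlap between the ages, and WT and Mef2c-het overlap at each age.

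For 6 of the 8 probes the 2 ages did not overlap, in WT and in Mef2c-het alike, beside 53.1% and 52.5% of all tested probes. Each of the 6 had an exact permutation p of 0.0286, the smallest that 4 arrays against 4 allow. The direction and the call of these 6 probes held in both genotypes under every setting tried, including the larger array cluster alone. Marker lists of other cell types were also read between the ages, beside a median of -0.03 over all tested probes in WT. Median log2 changes in WT were 4.34 for 9 oligodendrocyte lineage markers, 1.36 for 6 neuronal, 1.06 for 9 astrocyte and 0.69 for 11 microglial markers. They were -2.04 for 5 markers of proliferating cells, -1.02 for 6 of choroid plexus, -0.41 for 4 of erythroid cells, -0.06 for 10 of pericytes and smooth muscle and -0.04 for 8 of meningeal fibroblasts. The medians of pericytes and smooth muscle and of meningeal fibroblasts thus lay near that of all tested probes. In WT the mean level of the 6 choroid plexus markers overlapped between P1 (8.38 to 10.33) and P30 (7.72 to 9.19). The part of these cell types in the endothelial values was not tested.

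**Figure D2:**
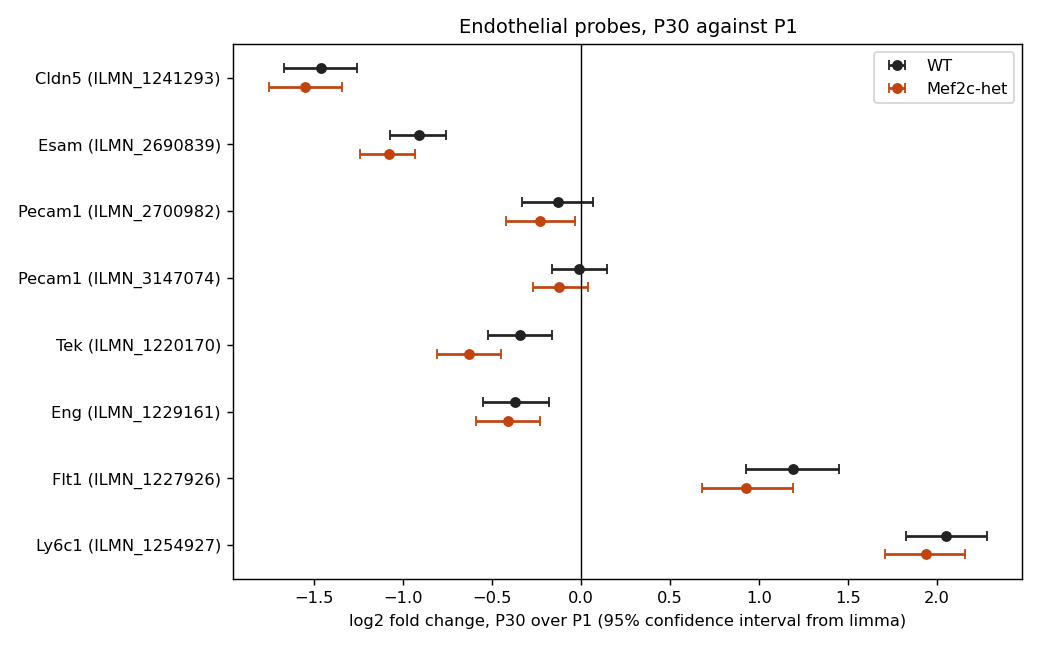
Log2 fold change of the 8 tested endothelial probes, P30 over P1 (horizontal axis), with 95% confidence intervals from limma, for WT (black) and Mef2c-het (red). Ly6c1 (2.05 in WT) and Flt1 (1.19) lie to the right of 0, Cldn5 (-1.46), Esam (-0.91), Eng (-0.37) and Tek (-0.34) to the left, and the intervals of both Pecam1 probes in WT cross 0.

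Cdh5, Kdr and Abcb1a could not be compared. Cdh5 encodes VE-cadherin, the cadherin of endothelial adherens junctions, and its probe ILMN_2866951 was detected on 3 of 16 arrays, 2 of WT and 1 of Mef2c-het, all at P1. Its deposited intensities ran from 123.7 to 204.6. Kdr probe ILMN_2665788 was detected on 1 of 16 arrays, WT replicate 6 at P30 (intensity 199.0), with the other readings from 115.0 to 168.5. Abcb1a encodes P-glycoprotein, the efflux pump at the luminal face of brain endothelium, and its probe ILMN_2768563 was detected on 0 of 16 arrays, at 108.8 to 168.3. These probes were not well above background, and no group gave a usable bound on a fold. That a probe was not detected does not show that its gene was silent. For Flt1, ILMN_2732721 stayed at 100.7 to 179.9 on arrays where ILMN_1227926 read 323.5 to 1173.6. Probe positions were not in the sources used here, so whether these 2 probes read the same Flt1 transcripts could not be checked.

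**Figure D3:**
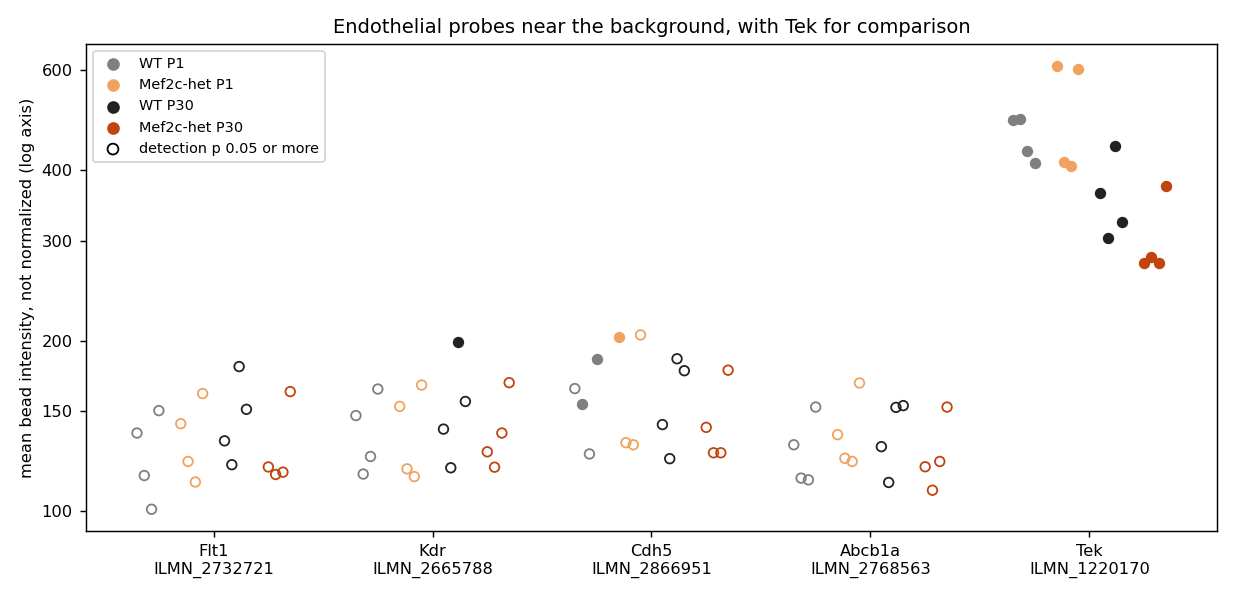
Mean bead intensity before normalization (vertical log axis) of the 4 endothelial probes that were not tested, and of Tek, on the 16 arrays in the 4 groups. Filled points have a detection p under 0.05, which holds for 3 arrays for Cdh5, 1 for Kdr, 0 for Abcb1a and for Flt1 probe ILMN_2732721, and all 16 for Tek.

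The comparison of Mef2c-het with WT asked whether loss of 1 Mef2c allele altered the endothelial genes. At P30 all 8 tested probes were lower in Mef2c-het, by 0.04 to 0.22 on the log2 scale, and none was called by limma, beside 0.00677% of all tested probes. The median of the 8 was -0.09, against -0.01 over all tested probes, of which 45.6% were higher in Mef2c-het, and with normexp background correction it was -0.17. The probes share the same 8 arrays and are not 8 independent readings of a direction. The genotypes overlapped for each of them, beside 1.89% of all tested probes whose genotypes did not overlap, with exact permutation p from 0.171 to 0.743.

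Flt1 differed by -0.22 at P30 (SE 0.122, 95% interval -0.48 to 0.04, adjusted p = 0.994, limma), and by -0.33 to -0.13 when 1 array was left out. Of its 4 Mef2c-het arrays 3, at 9.62, 9.77 and 9.47, lay below the lowest WT array, and the other, at 10.06, lay above the highest. Tek differed by -0.19 (SE 0.0847, 95% interval -0.37 to -0.01, adjusted p = 0.994, limma), with replicates 3 and 6 of Mef2c-het below all WT arrays. Tek was the only 1 of the 8 with an unadjusted p under 0.05 in limma (0.0394), beside 2.84% of all tested probes, and its exact permutation p was 0.171. With normexp background correction Tek differed by -0.31 and Flt1 by -0.25, again without a call, and the Pecam1 probes ILMN_2700982 and ILMN_3147074 by -0.22 and -0.30 in place of -0.08 and -0.10. Ly6c1 differed by -0.11 (95% interval -0.33 to 0.12) and Cldn5 by -0.08 (-0.29 to 0.12). Esam differed by -0.07 (-0.23 to 0.09) and Eng by -0.04 (-0.22 to 0.15).

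Mef2c-het replicate 6 at P30 was the lowest array of its group for Esam, Flt1, Eng, Ly6c1 and Pecam1 probe ILMN_2700982, and level with replicate 3 for Tek. Without it, 6 of the 8 probes were lower in Mef2c-het, with a median of -0.06. Restricted to the larger array cluster, 7 of 8 were lower, with a median of -0.16. At P30 that cluster holds only WT replicates 2 and 3 and Mef2c-het replicates 3, 5 and 6. It leaves out Mef2c-het replicate 7, where the mean deviation of the 8 probes was highest (1.15, in SD units). It keeps Mef2c-het replicate 6, where that mean was lowest (-1.32). Replicate 6 also read lowest for Mef2c probe ILMN_2732465, at 8.97, and replicate 7 read highest, at 9.92.

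At P1 the differences were smaller, from 0 to 0.10, with a median of 0.01 against 0 over all tested probes. None of the 8 was called by limma, beside 0.0135% of all tested probes, and none had an unadjusted p under 0.05, beside 2.28%. The largest were Esam, 0.10 (95% interval -0.05 to 0.26), and Tek, 0.10 (-0.08 to 0.28). All 8 values were at or above 0, beside 50.7% of all tested probes that were higher in Mef2c-het. This direction rested on single arrays: without Mef2c-het replicate 1 at P1, 3 of the 8 were higher (median -0.01), and without replicate 8, 4 of the 8 were higher. The groups overlapped for all 8, beside 1.42% of all tested probes whose groups did not, with exact permutation p from 0.229 to 1.

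The difference of the genotype effect between P30 and P1, which is also the difference of the age change between the genotypes, had no call by limma among the 8 probes or among all 14777 (0%). It was negative for all 8 (median -0.11), beside 47.2% of all tested probes with a value above 0. With normexp background correction the median was -0.22, and Tek was -0.44. The size was largest for Tek, -0.29 (SE 0.12, 95% interval -0.55 to -0.04, adjusted p = 0.998, limma), the only 1 of the 8 with an unadjusted p under 0.05 (0.027), beside 2.96% of all tested probes. Tek was higher in Mef2c-het by 0.10 at P1 and lower by 0.19 at P30. For Flt1 the difference was -0.26 (95% interval -0.62 to 0.11) and for Cldn5 -0.08 (-0.37 to 0.21).

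**Figure D4:**
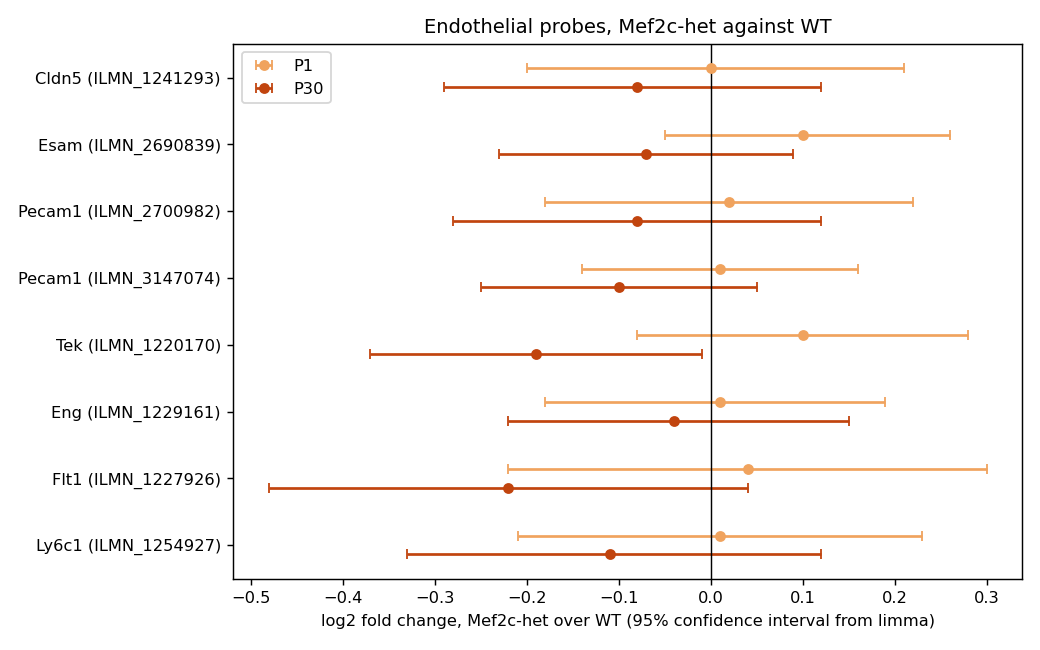
Log2 fold change of the 8 tested endothelial probes, Mef2c-het over WT (horizontal axis), with 95% confidence intervals from limma, at P1 (light) and P30 (dark). All points at P30 lie below 0, from -0.22 (Flt1) to -0.04 (Eng), those at P1 lie between 0 and 0.10, and the only interval that leaves out 0 is that of Tek at P30 (-0.37 to -0.01).

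The same age comparison was made for lists of genes that work beside the 10, each gene read by its brightest tested probe. The counts below stand beside 28% of all tested probes called higher and 31.7% called lower in WT, and 26.9% and 31.4% in Mef2c-het, and nothing particular to a list is read from them. Of 11 measured genes of VEGF and angiopoietin signalling, 3 rose and 3 fell between P1 and P30 in WT, beside 59.7% of all tested probes called in either direction, with a median of -0.11 against -0.03 over all tested probes. Nrp1, the VEGF co-receptor neuropilin-1, fell by 1.41, and Angpt1, the Tek ligand angiopoietin-1, fell by 0.65. Vegfd, a ligand of the family, rose by 0.75, and Ptprb, the phosphatase that acts on the Tek receptor, rose by 0.47. Nrp1 is also carried by neurons. Of 7 measured genes of TGF-beta and BMP signalling, the pathway of Eng, 1 rose and 5 fell (median -0.82), beside 28% and 31.7% of all tested probes. The falls were led by the signal transducers Smad5 (-1.25) and Smad1 (-1.23) and the BMP target genes Id1 (-1.01) and Id3 (-0.82). These genes are active in many cell types, dividing cells included.

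Among 10 measured transporters and receptors of the blood-brain barrier, 3 rose and 5 fell (median -0.19). The amino acid transporters Slc38a5 (-2.13) and Slc7a5 (-1.30) fell, while the glucose transporter Slc2a1 (0.86) and the organic anion transporter Slco1a4 (0.76) rose. Of 14 measured genes of Wnt and norrin signalling, the pathway that induces the barrier, 2 rose and 6 fell (median -0.19). The falls included Apcdd1 (-1.64) and Axin2 (-0.48), both Wnt target genes, the ligand Wnt7b (-0.75), and the transcription factor Foxq1 (-0.59). In Mef2c-het limma called 0 of these 14 higher, with 1 at an unadjusted p under 0.05, and 4 fell. Of 7 measured genes of cell junctions other than Cldn5 and Esam, 2 rose in WT and limma called 0 lower, also at an unadjusted p under 0.05: Ocln, the tight junction protein occludin, by 0.32 and F11r, the junctional adhesion molecule A, by 0.18. In Mef2c-het limma called 2 of these 7 higher and 1 lower, and F11r, at 0.12, was not called.

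Of 19 further genes of endothelial identity, 2 rose and 10 fell in WT (median -0.26), beside 28% and 31.7% of all tested probes. Ly6a, a neighbour of Ly6c1 in the Ly6 family, rose by 2.58, whereas Cd93 (-1.21), Podxl (-0.93) and the transcription factor Ets1 (-0.91) fell. In Mef2c-het 3 of the 19 rose and 11 fell, beside 26.9% and 31.4%. Of 10 measured markers of pericytes and vascular smooth muscle, which wrap the endothelium, 2 rose and 2 fell in WT (median -0.06): Acta2 rose by 1.12 and Vtn by 0.55, and Notch3 fell by 0.46 and Higd1b by 0.40.

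**Figure D5:**
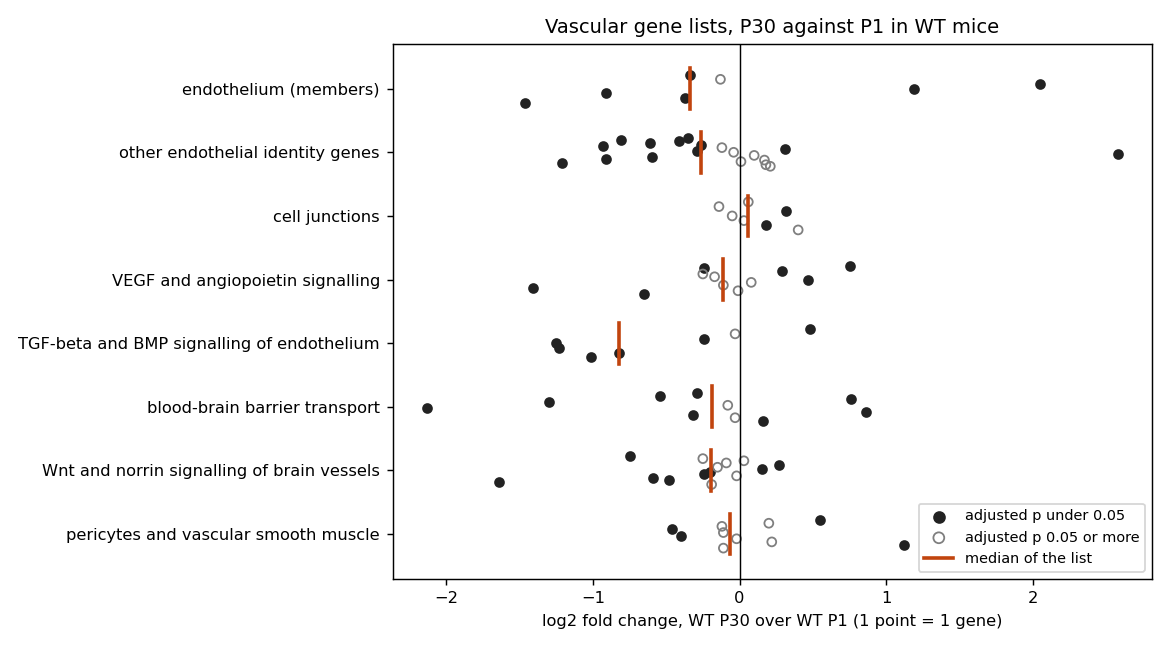
Log2 fold change, P30 over P1 in WT (horizontal axis), of each measured gene of 8 vascular lists (vertical axis), with filled points for an adjusted p under 0.05 and a red bar for the median of the list. The medians run from -0.82 (TGF-beta and BMP signalling) to 0.06 (cell junctions), and most lists hold genes on both sides of 0.

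Between the genotypes, limma called 0 of the 68 measured genes of the endothelial lists and 0 of the 10 pericyte and smooth muscle markers, at either age. At P30, 3 of the 68, Nrp1 (-0.24), Ets1 (-0.20) and Nos3 (-0.20), the endothelial nitric oxide synthase, had an unadjusted p under 0.05, beside 2.84% of all tested probes, each with an adjusted p of 0.994 (limma). At P1 these were 3 of the 68, Angpt2 (0.18), Wnt7b (-0.18) and Podxl (-0.32), beside 2.28%, each with an adjusted p of 1. For the difference between the ages they were 6 of the 68, beside 2.96%, namely Nrp1 (-0.32), Wnt7b (0.31), Ets1 (-0.36), Adgrl4 (-0.32), Nos3 (-0.31) and Mmrn2 (-0.22), each with an adjusted p of 0.998. The lists held genes on both sides of 0 at P30, beside 45.6% of all tested probes that were higher in Mef2c-het. Higher were 5 of the 19 further identity genes (median -0.07), 1 of the 10 pericyte and smooth muscle markers (-0.05), 3 of the 10 transport genes (-0.05), 4 of the 11 of VEGF and angiopoietin signalling (-0.01), 3 of the 7 of TGF-beta and BMP signalling (-0.01), 9 of the 14 of Wnt and norrin signalling (0.05) and 4 of the 7 of cell junctions (0.04).

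Within groups, the 8 probes varied together in part. After the group means were subtracted, the 28 pairs had correlations over the 16 arrays from -0.231 to 0.837, with a mean of 0.304 and 24 of them above 0, against a mean of 0.0224 over all pairs of tested probes. Eng and Flt1 were most alike (r = 0.837), followed by Esam with Flt1 (0.683) and with Eng (0.681). Cldn5 stood apart from them, at -0.183 with Eng, -0.231 with Esam and -0.0447 with Flt1. The 2 Pecam1 probes had an r of 0.192 with each other. The mean profile of the 8 probes, in SD units, was lowest on Mef2c-het replicate 6 at P30 (-1.32) and replicate 2 at P1 (-1.11), and highest on Mef2c-het replicate 7 at P30 (1.15).

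Among 10796 other genes, the one whose array-to-array profile was most like that mean was Aqp4 (r = 0.952), the water channel of the astrocyte endfeet that cover brain vessels. It was followed by Coa7 (0.926), Psmb2 (0.91), Rdh5 (0.906), Olfr1383 (0.903), Pak3 (0.902), Rab27a (0.899), Col4a1 (0.891), Cebpb (0.889) and Sorl1 (0.889). Col4a1 encodes a collagen of the vascular basement membrane. Of the 68 listed genes of the endothelial pathways 2, Nos3 (0.846) and Mmrn2 (0.798), were among the 100 most alike, and of the 10 pericyte and smooth muscle markers 0. Of the 9 astrocyte markers, only Aqp4 was among these 100. In this ranking each gene was represented by its probe with the highest r. For Nos3 that was ILMN_2729153, whereas its genotype differences above came from ILMN_2788593. The profile also had an r of 0.464 with Mef2c probe ILMN_2732465, and of 0.536 with the signal floor of the arrays. These correlations describe 16 arrays whose signal floors differed and whose chips are not given, and carry no test.

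The stretches of 250 bases before an annotated transcription start are shown for Flt1 and Eng, which were most alike across arrays but differed in direction with age. That of Cldn5, which stood apart from both, is shown too. The Flt1 window lies inside the annotated gene, which extends to position 147726438, so it does not precede the outermost start. Sequences are from RefSeq, build GRCm38.p6, and were held for 7 of the 10 genes. Capitals mark AGGAAG, the core bound by ETS factors such as those encoded by Ets1, Erg and Fli1, on either strand.
Flt1, chr5:147726012-147726261, minus strand: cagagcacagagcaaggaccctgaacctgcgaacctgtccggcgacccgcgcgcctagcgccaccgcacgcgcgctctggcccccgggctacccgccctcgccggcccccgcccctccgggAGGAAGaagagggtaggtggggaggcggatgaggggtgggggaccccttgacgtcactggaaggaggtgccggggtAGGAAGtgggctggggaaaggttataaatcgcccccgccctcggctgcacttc
Eng, chr2:32646345-32646594, plus strand: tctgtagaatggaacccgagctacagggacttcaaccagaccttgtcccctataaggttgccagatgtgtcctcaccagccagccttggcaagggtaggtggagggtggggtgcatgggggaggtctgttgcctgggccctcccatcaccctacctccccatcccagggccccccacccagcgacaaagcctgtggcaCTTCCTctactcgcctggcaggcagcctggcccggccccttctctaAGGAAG
Cldn5, chr16:18776597-18776846, plus strand: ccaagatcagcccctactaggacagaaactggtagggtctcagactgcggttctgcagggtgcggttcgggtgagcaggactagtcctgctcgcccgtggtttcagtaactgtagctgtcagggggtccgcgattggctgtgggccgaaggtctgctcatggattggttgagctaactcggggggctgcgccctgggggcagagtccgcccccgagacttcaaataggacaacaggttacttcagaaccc

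The Flt1 and Eng windows hold 2 matches each and that of Cldn5 holds 0, as do those of Tek and Kdr, while Abcb1a has 2. The windows of Kdr and Tek also lie wholly or partly inside the annotated gene. For Ly6c1 the windows of 2 annotated starts were held, which hold 0 and 3 matches and overlap. The Ly6c1 window with 0 matches lies partly inside the annotated gene, and that with 3 lies wholly inside it. The core is found in 29.5% of all 32851 such windows. The MEF2 consensus was in none of the members' windows and in 1.69% of all. A match is a run of letters and not a measured binding site.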

How the data were processed

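Total RNA was labelled as biotinylated cRNA and hybridised to Illumina MouseRef-8 v2 arrays. The authors deposited, for each probe and array, a mean bead intensity on a linear scale, not normalized, a detection p-value, the bead number and the bead standard error. Any local background subtraction is not given in the sources used here. The methods state log2 transformation and quantile normalization, and the submitters' processing notes name lumi and limma.

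Here the deposited intensities were log2 transformed, quantile normalized over the 16 arrays and fitted with limma 3.58.1 (R 4.3.3) as 4 group means, two-sided, after the filter on detection. Quantile normalization gives all arrays one distribution, so values are relative to the other probes. RefSeq names (GRCm38.p6) matched 25376 of 25697 probes. Single probes were also compared by two-sided exact permutation over 70 assignments of 8 arrays. The steps were tested on simulated data. The number of arrays limits the precision.

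Named were all probes of the 10 genes, the Mef2c probes, up to 4 genes a list with the largest called age change in WT, genes of the endothelial lists with an unadjusted p under 0.05 between genotypes (at most 4 a list), and the 10 genes most like the members' mean profile. Members and lists were chosen with earlier results of these data known. Alternatives covered background correction, scaling, filters, variance model, array clusters, 1 probe per gene, each age alone, a replicate block and leaving out each array.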

Additional observations from a re-analysis of the deposited data

Results flagged for a closer look

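In 2 of 40 groups of 4 arrays 1 array stood apart from the other 3 by Dixon's criterion, and chance gives about 1 in 20 groups, or 2. Mef2c-het replicate 2 at P1 read 11.77 for Cldn5, with the nearest other array at 11.91, a gap of 0.885 of the range of the group. Mef2c-het replicate 6 at P30 read 9.56 for Esam, with the nearest other array at 9.76, a gap of 0.869 of the range. Neither array changed the fall of Cldn5 or of Esam with age when it was left out.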

How the results depend on the processing

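The counts of called endothelial probes stayed at 0 in both genotype comparisons and in their difference, at 6 in WT and at 6 to 7 in Mef2c-het between the ages, under all settings. Of the values of single probes, 1010 of 1059 kept their direction and side of the threshold, 36 changed sign, with values from -0.07 to 0.04 and no call, and 13 lost the call of Pecam1 probe ILMN_2700982 in Mef2c-het (main adjusted p 0.047, limma; 0.0676 with cyclic loess and 0.0664 without a filter). Median scaling turned Eng at P1 to 0. In the larger array cluster, Cldn5 was 0.03 at P30 and 0.01 for the difference between the ages, at P1 Eng was -0.05, Flt1 -0.02 and Ly6c1 0, and Pecam1 probe ILMN_3147074 was 0.01 between the ages in WT. Leaving out an array moved Eng from -0.08 to 0.04 and Pecam1 probe ILMN_2700982 from -0.14 to 0.01 at P30. At P1 it moved Cldn5 from -0.07 to 0.05, Eng from -0.05 to 0.06, Flt1 from -0.02 to 0.12, Ly6c1 from -0.04 to 0.05, Pecam1 probe ILMN_2700982 from -0.02 to 0.08 and ILMN_3147074 from -0.03 to 0.05. It moved the difference between the ages for Eng from -0.10 to 0.03, and the WT age difference of Pecam1 probe ILMN_3147074 from -0.04 to 0.01. The cause was not tested.

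The labels do not say whether replicate numbers pair the samples, and the values do not settle it. Deviations of same-numbered WT and Mef2c-het arrays had correlations of 0.0909, 0.397 and 0.82 at P1 and 0.17, -0.522 and 0.697 at P30. The median over 26 WT and Mef2c-het pairs of an age with different numbers was -0.0716. The arrays of the pairs at 0.82 and 0.697 all lay in the smaller array cluster. With the replicate number as a block, Cldn5 at P1 was -0.03, the median of the 8 probes at P1 was 0.07 and the count of called probes stayed at 0 at both ages. No paired analysis was possible because the ages share no replicate numbers for the comparisons between P1 and P30. Probes near the background limit what can be said of Cdh5, Kdr and Abcb1a.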
